A study of Homo sapiens with 23 samples.

Results

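Albumin and 9 other proteins that the liver secretes into plasma were followed as mRNA in a gut cell line and a liver cell line grown apart or connected. The 10 genes were taken by symbol (ALB, AFP, TTR, RBP4, GC, AHSG, FETUB, AMBP, A2M and VTN), and all 10 were present among the 60564 genes of each deposited table. Their levels were measured by mRNA-seq in 11 libraries of Caco-2 cells, an established colorectal adenocarcinoma line used as a model of the intestinal epithelium, and in 12 libraries of HepG2 cells, an established hepatocellular carcinoma line. Both lines were kept in the integrated-gut-liver-on-a-chip, where each occupies its own chamber. They were cultured alone (mono-culture) or with the chambers joined by circulating medium (co-culture), and were left without FFAs (control) or treated for 1 day with 1 mM free fatty acids (FFAs), a mixture of palmitic and oleic acid. Each line therefore had 4 groups of 3 libraries, apart from the co-cultured Caco-2 control group with 2. Each line is 1 tumour-derived line, so the libraries hold no normal gut or liver tissue. The study describes its replicates as biological, and whether libraries with the same number shared a chip is not stated.

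Most plasma proteins are made by hepatocytes and released through the secretory pathway. ALB, the most abundant of them, carries fatty acids and many other ligands and holds water in the circulation. AFP is its fetal relative and is switched on again in many liver tumours. ALB and AFP lie side by side in the albumin family cluster on chromosome 4, which also holds GC, the vitamin D-binding protein gene. TTR carries thyroid hormone and holds RBP4, the carrier of retinol, in the circulation. AHSG and FETUB are the fetuins, of which AHSG keeps calcium phosphate in solution. AMBP encodes a precursor that is cut into the haem scavenger alpha-1-microglobulin and the protease inhibitor bikunin. A2M traps proteases of many classes, and VTN (vitronectin) is an adhesion protein that binds integrins.

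In GENCODE v44 on GRCh38, ALB spans chr4:73397114-73421482 and AFP chr4:73431138-73456174, both on the plus strand, with 15 exons each in the canonical transcript. GC lies at chr4:71741696-71804041 on the minus strand and has 13 exons. The fetuin genes AHSG (chr3:186613060-186621318) and FETUB (chr3:186635969-186653141) are neighbours on the plus strand with 7 exons each. TTR (chr18:31557009-31598833, plus strand) has 4 exons, RBP4 (chr10:93591687-93601744, minus strand) 6, AMBP (chr9:114060127-114078328, minus strand) 10, VTN (chr17:28367284-28373091, minus strand) 8 and A2M (chr12:9067664-9116229, minus strand) 36. The library kit does not mark strand, so reads of a gene and of one overlapping it on the other strand cannot be told apart. SARM1 overlaps VTN in this way and reached at most 24.1 TPM in Caco-2 cells and 1.41 TPM in HepG2 cells. A2M-AS1 overlaps A2M and reached at most 1.42 and 1.04 TPM. FFAR4 overlaps RBP4 and reached at most 5.96 TPM in Caco-2 cells and 0.08 TPM in HepG2 cells. HRG-AS1 overlaps both AHSG and FETUB and reached at most 0.9 TPM in Caco-2 cells and 2.03 TPM in HepG2 cells. FETUB itself reached at most 0.87 and 1.98 TPM, and how much of this came from the other strand was not tested. TPM, the deposited unit of transcript abundance, are scaled by transcript length, so the levels of different genes in a library can be set side by side.

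Promoter sequences from RefSeq (GRCh38.p14) were found for 7 of the 10 genes: ALB, AFP, AHSG, RBP4, FETUB, AMBP and VTN. Those of ALB and AFP are shown because these neighbours had the highest levels of the 10 in HepG2 cells, that of AHSG because it was high in both lines, and that of VTN because it was the gene with the higher level in Caco-2 cells. Each run holds the 250 bases before the RefSeq start of the gene, 5′ to 3′ on the gene's strand: chr4:73404037-73404286 (plus) for ALB, chr4:73435971-73436220 (plus) for AFP, chr3:186612810-186613059 (plus) for AHSG and chr17:28370308-28370557 (minus) for VTN. The windows of ALB, AFP and VTN lie inside the longer gene spans that GENCODE gives. Capitals mark matches to the motifs named after the sequences.
ALB: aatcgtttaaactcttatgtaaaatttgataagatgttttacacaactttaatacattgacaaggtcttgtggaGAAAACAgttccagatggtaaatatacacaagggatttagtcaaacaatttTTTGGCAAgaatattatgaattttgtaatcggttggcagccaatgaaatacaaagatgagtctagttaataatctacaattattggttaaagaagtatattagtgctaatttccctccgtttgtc
AFP: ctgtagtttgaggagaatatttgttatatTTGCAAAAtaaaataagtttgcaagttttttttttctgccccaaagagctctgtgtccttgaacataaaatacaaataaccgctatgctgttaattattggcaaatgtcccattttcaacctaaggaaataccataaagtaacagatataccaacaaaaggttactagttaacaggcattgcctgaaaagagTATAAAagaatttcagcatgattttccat
AHSG: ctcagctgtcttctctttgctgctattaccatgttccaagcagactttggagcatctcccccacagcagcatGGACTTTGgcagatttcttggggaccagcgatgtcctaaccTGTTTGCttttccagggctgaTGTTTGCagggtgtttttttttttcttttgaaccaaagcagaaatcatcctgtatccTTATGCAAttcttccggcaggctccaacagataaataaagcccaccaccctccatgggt
VTN: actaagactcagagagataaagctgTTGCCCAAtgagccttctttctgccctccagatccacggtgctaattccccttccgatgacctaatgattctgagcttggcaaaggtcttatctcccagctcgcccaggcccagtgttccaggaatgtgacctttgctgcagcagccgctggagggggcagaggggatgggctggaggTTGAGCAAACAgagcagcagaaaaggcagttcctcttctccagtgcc

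The letters searched were TTGCNNAA for C/EBP, TGTTTNC for FOXA and CAAAGTCC for the core of an HNF4 site, each on both strands, and TATAAA for the TATA box on the gene's strand. The 7 genes have 10 windows in RefSeq, since some list more than 1 start. C/EBP letters were found in 6 of these 10 windows and in 9.05% of all 35116 RefSeq promoter windows of the same length. In VTN they occurred at both 225 to 218 and 47 to 40 bases before the start, the latter overlapping a FOXA match. FOXA letters were found in 5 of the 10 windows and in 15.5% of all windows. AHSG held FOXA letters at 2 places and was the only 1 of the 7 with HNF4 letters, which 1.02% of all windows contained. The TATA box letters stood 29 to 24 bases before the start of AFP, and were found in 4 of the 10 windows and in 6.80% of all windows. A match is a description of the letters, not a site shown to be bound.

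The line labels were checked against markers. The 10 hepatocyte markers (ASGR1, ASGR2, F2, F9, SERPINC1, TF, HPX, CPB2, PLG and ARG1) summed to 8108 to 11867 TPM in HepG2 cells and 332 to 598 TPM in Caco-2 cells, and F9 was listed at 0 in every library of both lines. Most of the hepatocyte sum in HepG2 cells was TF (mean 7428 TPM). In mono-cultured controls 8 of the 9 tested were higher in HepG2 cells and 1 lower. HPX averaged 15.2 TPM in HepG2 and 19.9 TPM in Caco-2 cells. The 8 intestinal markers (CDX1, CDX2, CDH17, GPA33, LGALS4, SI, ISX and CEACAM5) summed to 491 to 634 TPM in Caco-2 cells and 2.95 to 10.2 TPM in HepG2 cells. Most of that Caco-2 sum was CDH17 (mean 407 TPM), while CDX1 averaged 0.0391 TPM there. Caco-2 libraries listed 20996 to 23689 genes above 0 TPM and HepG2 libraries 19259 to 22416. The depth of the libraries is unknown, because TPM keep no read counts.

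ALB ranked 1 or 2 among all genes in every HepG2 library. Its mean was 28679 TPM ± 4269 (SD, n = 12), with a range of 20460.2 to 33859 TPM, so that ALB alone took 2.87% ± 0.43 of all TPM. AFP followed with 8987 TPM ± 842 (7923 to 10275) and ranked from 4 to 7. A2M averaged 6736 TPM (4907 to 7927), AHSG 4475 TPM (3520 to 5589.6), AMBP 4296 TPM (3383 to 5848) and RBP4 1935 TPM (1639 to 2312). TTR averaged 446 TPM (232 to 649) and VTN 317 TPM (240.0 to 369). In all 12 libraries ALB was above AFP, AFP above A2M and A2M above AHSG. AHSG and AMBP could not be ordered, AHSG being the higher in 7 of 12 libraries, and TTR was above VTN in 10 of 12. The lowest 2 stood far below. FETUB averaged 0.902 TPM (0.42 to 1.98), and GC was listed at 0 in 7 of 12 libraries, among them all 3 mono-cultured controls, with a highest value of 4.46 TPM in co-cultured FFAs-treated library 1.

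Caco-2 cells contained the same mRNAs in another order. VTN averaged 1340.4 TPM ± 246 (SD, n = 11) with a range of 1015 to 1784 TPM, and AHSG 1314 TPM ± 191 (918 to 1554). They could not be ordered, since VTN was the higher in 5 of 11 libraries, and they ranked from 47 to 104 and from 54 to 122 among all genes. RBP4 averaged 649.6 TPM (501 to 847), ALB 483 TPM (321 to 769), TTR 277 TPM (227 to 342) and AFP 259 TPM (170.1 to 414). RBP4 was above ALB in 10 of 11 libraries and ALB above TTR in 10 of 11, whereas TTR was above AFP in 6 of 11. AMBP averaged 15.0 TPM (6.47 to 62.0) and A2M 13.9 TPM (1.96 to 78.1). FETUB and GC had means of 0.446 and 0.615 TPM. The 10 mRNAs together made up 5.59% ± 0.65 of all TPM in HepG2 cells (4.36 to 6.42%) and 0.435% ± 0.066 in Caco-2 cells (0.332 to 0.522%). ALB and AFP were nearer each other in Caco-2 cells, with an ALB to AFP ratio of 1.86 ± 0.13 (1.53 to 2.06) against 3.20 ± 0.47 (2.51 to 4.02) in HepG2 cells, and the ranges did not overlap.

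**Figure D1:**
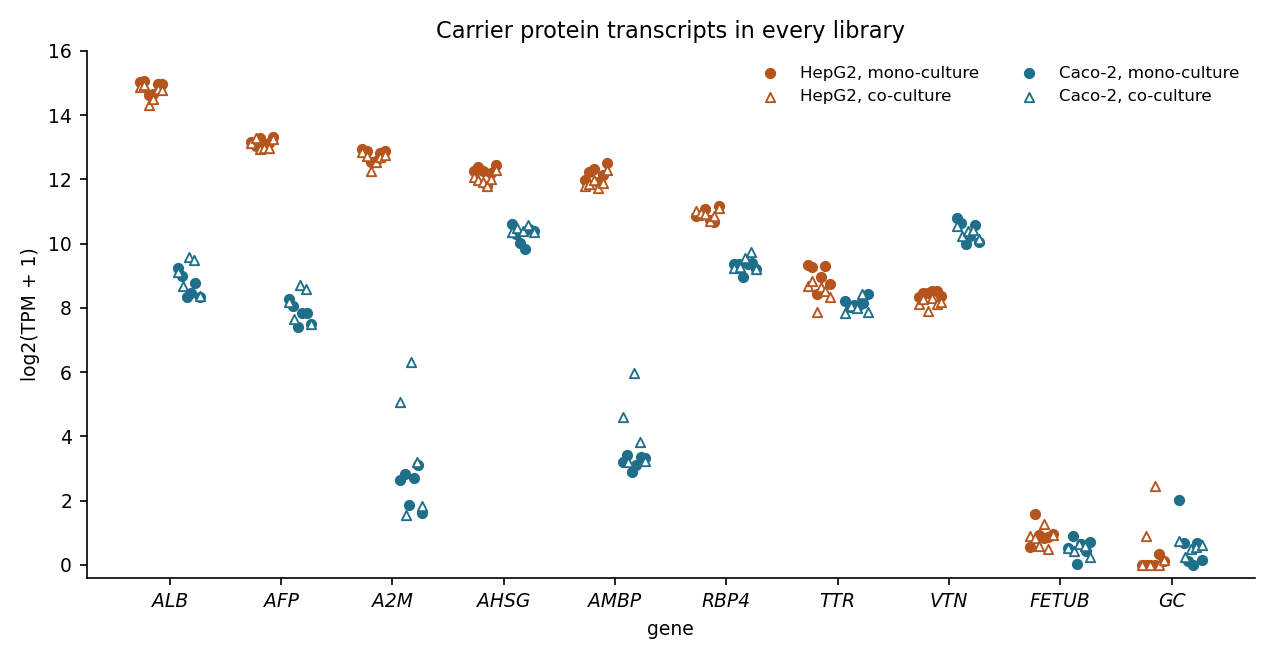
Level of each of the 10 mRNAs as log2(TPM + 1) on the vertical axis, 1 point per library, with HepG2 cells in brown, Caco-2 cells in blue, mono-culture as filled circles and co-culture as open triangles. ALB, AFP, A2M and AMBP of HepG2 cells lie above all Caco-2 points, VTN lies below all of them, and GC and FETUB stay near 0 in both lines.

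The lines were compared in mono-cultured controls (3 libraries each), with limma on log2(TPM + 1), all 23 libraries in one fit and Benjamini-Hochberg adjustment over 16495 genes. HepG2 cells were higher for 7 of the 10 genes and lower for 1. Over all genes tested, 23.4% passed as higher and 39.0% as lower in HepG2 cells. The median log2 difference (HepG2 minus Caco-2) was 1.84 over the 10 genes beside −0.20 over all genes. Quantile normalization moved the median of all genes to −0.00325 and the split of called genes from 3857 higher and 6429 lower to 5002 and 5185, and median-of-ratios scaling gave 4755 and 5316. All 8 calls among the 10 genes were kept under both.

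The largest differences belonged to the protease-binding proteins. A2M had 7927, 7468 and 5974 TPM in HepG2 controls and 5.24, 6.15 and 2.61 TPM in Caco-2 controls, a log2 difference of 10.34 (SE 0.82, limma adjusted p = 1.55e-09). AMBP had 4031, 4792 and 5068 TPM against 8.23, 9.64 and 6.47 TPM, a log2 difference of 8.998 (SE 0.46, limma adjusted p = 1.68e-12). The libraries of both lines stood far apart for these genes, without overlap.

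The albumin family followed. ALB had 33449, 33859 and 25169 TPM in HepG2 controls and 604, 510.2 and 321 TPM in Caco-2 controls, a log2 difference of 6.04 (SE 0.27, limma adjusted p = 2.9e-13), or 65.9-fold. AFP had 9072, 8415 and 10013 TPM against 307, 268 and 170.1 TPM, a log2 difference of 5.24 (SE 0.25, limma adjusted p = 6.63e-13), or 37.8-fold. GC, in the same cluster, was listed at 0 in the 3 HepG2 controls and its call was not made (limma adjusted p = 0.108), so no fold is given.

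AHSG, RBP4 and TTR differed by smaller amounts. AHSG was 3.95-fold higher in HepG2 cells (log2 difference 1.98, SE 0.17, limma adjusted p = 7.76e-09) and RBP4 3.26-fold (1.71, SE 0.15, limma adjusted p = 5.25e-09). TTR was 1.86-fold higher (0.90, SE 0.24, limma adjusted p = 0.00277), with 649, 616 and 343 TPM in HepG2 controls and 294, 263 and 273 TPM in Caco-2 controls. For FETUB the log2 difference was 0.54 (limma adjusted p = 0.0672). It passed as higher in HepG2 cells under quantile normalization (limma adjusted p = 0.0233) and under median-of-ratios scaling (0.0399). FETUB was kept by the filter only through the mono-cultured HepG2 controls (mean 1.13 TPM, highest library 1.98 TPM). That is the group called higher, so these calls carry no weight.

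VTN went the other way. It had 324, 349 and 351 TPM in HepG2 controls and 1784, 1607 and 1015 TPM in Caco-2 controls, a log2 difference of −2.06 (SE 0.17, limma adjusted p = 2.41e-09). Every Caco-2 library of every group (lowest 1015 TPM) was above every HepG2 library (highest 369 TPM). Lower calls in HepG2 cells were common, at 39.0% of all genes tested. For this and the other separations of the lines, the share of all genes separated alike is not given.

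Other genes of the pathway were described from lists. Over all genes tested, 23.4% were called higher and 39.0% lower in HepG2 cells, and every count below stands beside these shares. Of 22 other plasma proteins, 21 were tested and 17 were higher and 3 lower in HepG2 cells, with a median log2 difference of 3.27. The 3 with the highest mean in HepG2 cells were the iron carrier TF (log2 difference 9.92), the phospholipid-binding APOH (2.09) and the selenium carrier SELENOP (3.85). The 3 that were lower were the cobalamin carrier TCN2 (−4.72), kininogen KNG1 (−3.28) and AFM (−0.65), a further gene of the albumin family. Of 11 receptors and binding partners of the 10 proteins, 10 were tested, and 4 were higher in HepG2 cells. Among them were the asialoglycoprotein receptor subunits ASGR1 (4.12) and ASGR2 (1.34) and the integrin subunit ITGAV (0.71), which pairs into receptors of vitronectin. The 2 that were lower were the endocytic receptors LRP2 (−2.34) and CUBN (−0.85), which take up filtered carriers in the kidney. FCGRT, the heavy chain of the receptor that recycles albumin, did not pass (0.31, limma adjusted p = 0.138).

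Transcription factors known to act at the ALB and AFP genes were called in both directions between the lines. Of 13, 5 were higher in HepG2 cells (PROX1 2.45, ONECUT1 2.18, ZHX2 2.16, FOXA3 0.74 and FOXA2 0.57 on the log2 scale) and 4 were lower (among them FOXA1 −2.01, NR5A2 −1.68 and CEBPA −1.54). Over all genes tested, 23.4% were called higher and 39.0% lower, so these counts are not read as a result about the 13. HNF4A was present in both lines, at a mean of 85.3 TPM in HepG2 cells and 111 TPM in Caco-2 cells. The log2 difference of HNF4A was −0.24 (limma adjusted p = 0.234).

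Co-culture with Caco-2 cells was then compared with mono-culture within HepG2 cells, averaged over both treatments (6 libraries each, limma, 14255 genes tested). None of the 10 genes passed the adjusted threshold, and 0.0561% of all genes did (8). At an unadjusted p under 0.05, 2 of the 10 (VTN and TTR) were lower in co-culture, beside 7.04% of all genes. With a block for the library number, VTN and TTR passed (limma adjusted p = 0.0407 and 0.0307), among 492 of all genes tested. The labels do not state that libraries are paired by number. In bulk RNA, fewer cells that make an mRNA and less of it in each cell cannot be told apart. The log2 difference was below 0 for 8 of the 10 and for 54.4% of all genes. Under quantile normalization it was below 0 for 6 of the 10, where AFP and AHSG turned above 0, RBP4 below it and A2M came to 0. That normalization gives each rank the same value in every library, so genes at the top ranks can hardly vary. A2M ranked 7 or 8, AFP 4 to 7 and AHSG 9 to 15, so their values under it carry little weight. Before that normalization the median log2 difference was −0.155 over the 10 beside −0.0216 over all genes. FETUB was kept by the filter only through mono-cultured controls (mean 1.13 TPM) and GC only through co-cultured FFAs-treated cells (1.52 TPM). Their directions follow from that filter and carry no weight in the count.

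VTN was the one gene of the 10 whose cultures did not overlap. Co-cultured HepG2 cells had 279.7, 309 and 240.0 TPM in controls and 316, 280.1 and 289.6 TPM with FFAs. Mono-cultured cells had 324, 349 and 351 TPM in controls and 367, 369 and 329 TPM with FFAs. Every co-cultured library lay below every mono-cultured one, as was the case for 0.758% of all genes tested. The log2 difference was −0.29 (SE 0.07, 95% interval −0.45 to −0.13), with a limma p of 0.00213 before adjustment and an adjusted p of 0.158. The two-sided exact permutation test of VTN alone, with libraries relabelled within treatment, gave p = 0.005, the smallest this design allows. That value follows from the lack of overlap and adds nothing to it. No exact permutation p given here is adjusted for the 10 genes tested. Taken apart, the log2 difference was −0.31 in controls (limma adjusted p = 0.604) and −0.27 with FFAs (limma adjusted p = 0.854).

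TTR had the largest difference in mean of the 8. Co-cultured cells had 408, 452 and 232 TPM in controls and 401, 371 and 322 TPM with FFAs. Mono-cultured cells had 649, 616 and 343 TPM in controls and 494, 633 and 432 TPM with FFAs. Here the cultures overlapped, and the library numbered 3 was the lowest of its group in all 4 groups. The log2 difference was −0.53 (SE 0.20, 95% interval −0.96 to −0.10, limma adjusted p = 0.297), and the exact permutation test gave p = 0.04. Libraries numbered 3 also listed the most genes above 0 TPM in each of the 4 groups. Without them the log2 difference of TTR was −0.55 (limma adjusted p = 0.0897).

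RBP4, the partner of TTR, had a log2 difference of 0.02 (95% interval −0.20 to 0.24). The RBP4 to TTR ratio was 5.89 ± 2.11 in co-cultured and 4.08 ± 1.94 in mono-cultured controls (SD, n = 3 each), and 5.34 ± 1.40 and 3.79 ± 1.42 with FFAs. Its spread within each group was as large as the difference between cultures or close to it.

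The remaining abundant carriers had smaller differences and overlapped. AMBP had 3541, 3717 and 4019 TPM in co-cultured and 4031, 4792 and 5068 TPM in mono-cultured controls. With FFAs it had 3383, 3782 and 5027 TPM in co-culture and 3834, 4504 and 5848 TPM in mono-culture. The co-cultured values of AMBP were the lower in mean within both treatments, with a log2 difference of −0.26 (SE 0.12, limma adjusted p = 0.422, exact permutation p = 0.075). AHSG had a log2 difference of −0.21 (95% interval −0.46 to 0.04, limma adjusted p = 0.48).

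ALB had 30135, 31169.6 and 20460.2 TPM in co-cultured controls and 23184, 28982 and 27925 TPM in co-cultured FFAs-treated cells. It had 33449, 33859 and 25169 TPM in mono-cultured controls and 25698, 32224 and 31899.7 TPM in mono-cultured FFAs-treated cells. These values overlapped. The log2 difference between cultures was −0.18 (SE 0.13, 95% interval −0.46 to 0.11, limma adjusted p = 0.612, exact permutation p = 0.225). AFP differed by −0.07 (95% interval −0.26 to 0.12) and A2M by −0.13 (95% interval −0.38 to 0.12). The intervals leave room for a fall of ALB by up to 0.46 on the log2 scale and for a small rise.

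**Figure D2:**
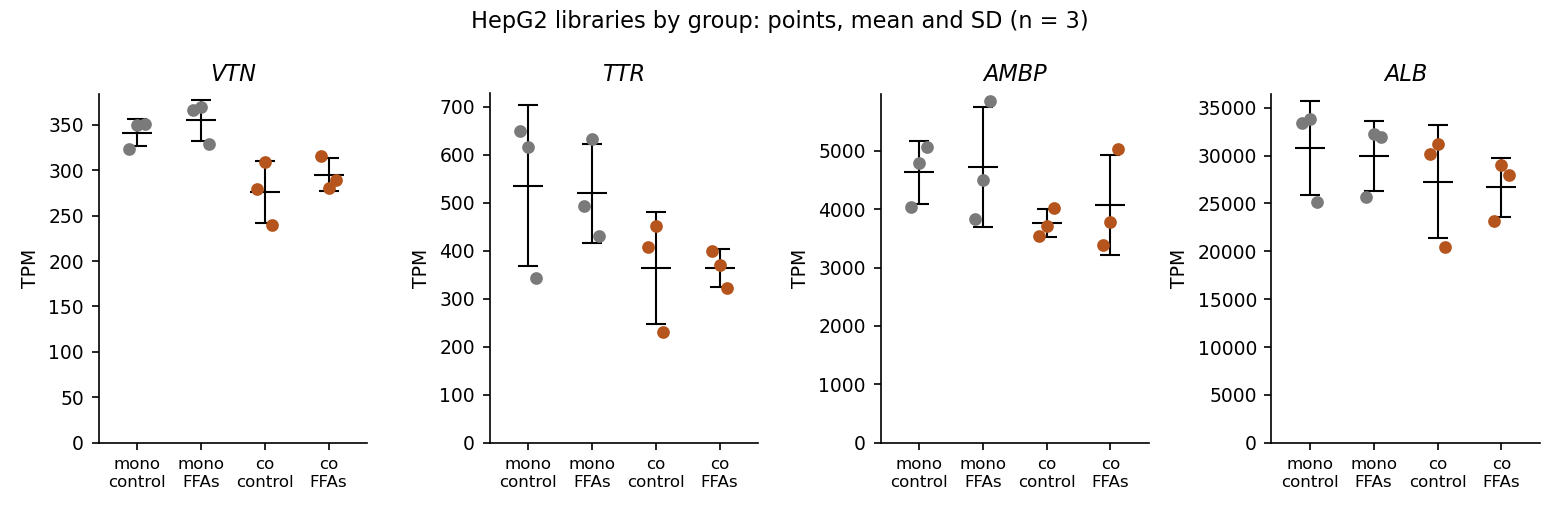
TPM of VTN, TTR, AMBP and ALB in the 4 groups of HepG2 cells, 1 point per library, with bars for the mean ± SD (n = 3). The co-cultured VTN points (240.0 to 316) all lie below the mono-cultured points (324 to 369), while the points of TTR, AMBP and ALB overlap between cultures.

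Other plasma proteins of HepG2 cells were compared between cultures in the same fit. Of 20 tested, 0 passed the adjusted threshold of limma, and 6 were lower and 0 higher at an unadjusted p under 0.05, beside the 7.04% of all genes given above. The log2 difference was below 0 for 18 of the 20 (17 under quantile normalization) and for 54.4% of all genes. Its median was −0.24 over the 20 beside −0.0216 over all genes. TF differed by −0.29 (limma adjusted p = 0.211), APOH by −0.20 (limma adjusted p = 0.56) and SELENOP by −0.24 (limma adjusted p = 0.366). The 13 regulators gave 0 calls, with −0.28 for HNF4A (limma adjusted p = 0.406), 0.74 for CEBPB (limma adjusted p = 0.426) and 0.01 for FOXA1 (limma adjusted p = 0.975). At an unadjusted p under 0.05, 2 regulators were lower and 0 higher. Of the receptors and partners, 8 were tested and 0 passed, with 0.04 for ASGR1, 0.07 for ASGR2 and −0.42 for FCGRT (limma adjusted p = 0.146). FCGRT was the only one of the 8 at an unadjusted p under 0.05. The 10 hepatocyte markers summed to 8108 to 9934 TPM in co-cultured and 9391 to 11867 TPM in mono-cultured HepG2 libraries. Most of this sum was TF, also one of the other plasma proteins, with 5680 to 7387 TPM in co-culture and 6802 to 9359 TPM in mono-culture. Without TF the sums were 2285 to 2692 TPM and 2321 to 2751 TPM, and these ranges overlapped. Genes that mark Caco-2 cells (63, chosen by the same limits as the HepG2 markers described for Caco-2 cells) reached 0.19 to 0.613% of their Caco-2 level in co-cultured and 0.127 to 0.242% in mono-cultured HepG2 libraries.

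FFAs changed none of the 10 mRNAs past the threshold in HepG2 cells. In mono-culture 0% of all genes passed at the adjusted and 2.24% at an unadjusted p under 0.05, and in co-culture 0% and 1.84%. None of the 10 genes had an unadjusted p under 0.05 in either culture. ALB, to which fatty acids bind in plasma, had a log2 difference of −0.04 in mono-culture (95% interval −0.44 to 0.36) and −0.01 in co-culture (95% interval −0.41 to 0.39). Averaged over cultures, it was −0.02 (95% interval −0.31 to 0.26, limma adjusted p = 1). The averaged log2 differences of the 10 genes ran from −0.07 for RBP4 to 0.36 for GC, and that of GC rested on the single library at 4.46 TPM.

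In Caco-2 cells the cultures were compared in the same way (5 co-cultured and 6 mono-cultured libraries, limma, 15081 genes tested). Of the 10 genes, 9 were tested, since FETUB stayed under a mean of 1 TPM in every group, and GC passed this filter only through mono-cultured controls (3.02 TPM in library 1). None passed the adjusted threshold, where 0% of all genes did, and none had an unadjusted p under 0.05, where 10.5% of all genes did. None of the 10 had all co-cultured libraries above all mono-cultured ones, as 0.749% of all genes had.

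A2M and AMBP had the largest differences, and they rested on few libraries. A2M had 32.9 and 1.96 TPM in co-cultured controls and 78.1, 8.28 and 2.55 TPM with FFAs, against 2.08 to 7.65 TPM in mono-culture. AMBP had 23.5 and 8.17 TPM in co-cultured controls and 62.0, 13.3 and 8.37 TPM with FFAs, against 6.47 to 9.64 TPM in mono-culture. In both genes the co-cultured libraries numbered 1 of either treatment were the high ones, and the others reached at most 8.28 TPM of A2M and 13.3 TPM of AMBP. The log2 differences were 1.09 for A2M (SE 0.79, limma adjusted p = 0.651, exact permutation p = 0.29) and 0.91 for AMBP (SE 0.43, limma adjusted p = 0.492, exact permutation p = 0.07). With 1 library left out they ran from 0.21 to 1.97 for A2M and from 0.50 to 1.27 for AMBP.

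Genes of HepG2 cells that have no part in the 10 were measured in the same libraries. Markers were 34 genes with at least 50 TPM in every mono-cultured control of HepG2 cells and at most 1 TPM in those of Caco-2 cells. Their sum, as a percent of that in HepG2 mono-cultured controls, was 0.825 and 0.0883% in Caco-2 controls of the co-culture, 2.08, 0.242 and 0.105% in its FFAs-treated libraries, and 0.1 to 0.183% in mono-cultured libraries. The libraries with the highest A2M and AMBP thus also had the highest share of HepG2 markers. The share multiplied by the level in HepG2 cells of the mono-cultured controls gives 148 TPM of A2M and 96.2 TPM of AMBP in co-cultured FFAs-treated library 1, above the 78.1 and 62.0 TPM found. When the share times the HepG2 level of the same group was subtracted from each co-cultured library, the direction turned for both genes. The log2 difference became −2.46 for A2M (limma adjusted p = 0.0117) and −1.83 for AMBP (limma adjusted p = 0.29). The amount subtracted was above the A2M found in every co-cultured library, so no A2M was left there and its direction was fixed. For AMBP this was so in the co-cultured libraries numbered 1. Mono-cultured libraries were left as measured, so the call of A2M is no result about culture. Whether this signal came from HepG2 cells, from their RNA or from another source was not tested.

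The markers were chosen for low levels in mono-cultured Caco-2 controls, so a low share there was fixed by that choice. It was at most 0.183% in the 6 mono-cultured Caco-2 libraries. ALB of these libraries had 604, 510.2 and 321 TPM in controls and 352, 437 and 321 TPM with FFAs, or 1.04 to 1.96% of the HepG2 level. Co-cultured libraries had 549.8 and 409 TPM in controls and 769, 714 and 328 TPM with FFAs. The highest value, 769 TPM in FFAs-treated library 1, stood beside a product of share and HepG2 level of 641 TPM. FFAs-treated library 2 had 714 TPM at a share of 0.242%. The log2 difference between cultures was 0.33 (SE 0.23, 95% interval −0.18 to 0.84, limma adjusted p = 0.647), and −0.23 (limma adjusted p = 0.782) after the share times the level in HepG2 cells of the same group was subtracted from the co-cultured libraries. AFP followed ALB, with 289, 199, 414, 386 and 179.5 TPM in the 5 co-cultured libraries, and a log2 difference of 0.26 (limma adjusted p = 0.713).

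**Figure D3:**
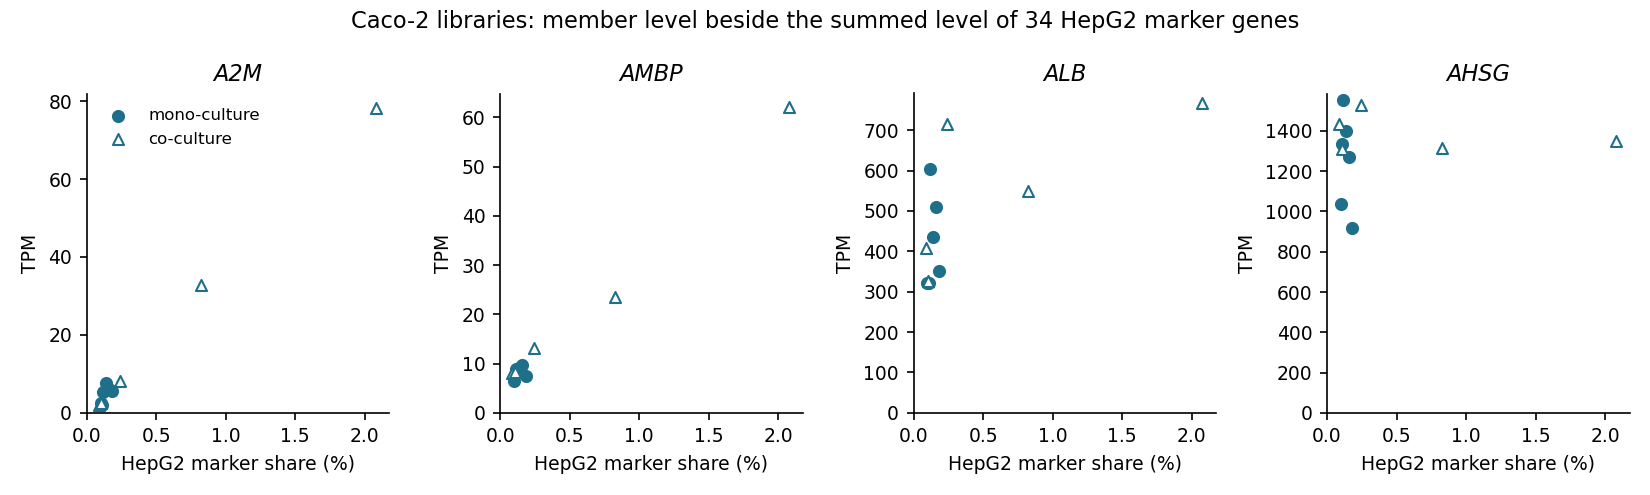
TPM of A2M, AMBP, ALB and AHSG in each Caco-2 library (vertical axis) against the HepG2 marker share of that library in percent (horizontal axis). A2M and AMBP are highest in the 2 co-cultured libraries at 0.825 and 2.08%, and AHSG lies between 918 and 1554 TPM in all libraries. The product of share and HepG2 level for AHSG is 104 TPM in the library at 2.08%. That is below its SD of 191 TPM in Caco-2 cells, so AHSG could not show the share.

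The carriers that Caco-2 cells made in large amounts were close between cultures. AHSG had 1318 and 1435 TPM in co-cultured controls and 1349, 1527 and 1311 TPM with FFAs, within the 918 to 1554 TPM of mono-culture (log2 difference 0.17, limma adjusted p = 0.663). RBP4 differed by 0.10 (95% interval −0.13 to 0.33), TTR by −0.15 (95% interval −0.37 to 0.07) and VTN by −0.02 (95% interval −0.35 to 0.31). VTN, which did not overlap between cultures in HepG2 cells, had 1117.8 to 1507 TPM in co-cultured and 1015 to 1784 TPM in mono-cultured Caco-2 cells. The difference between the lines in the effect of co-culture on VTN was −0.27 (95% interval −0.63 to 0.10, limma adjusted p = 0.503). VTN was thus not shown to respond differently in the lines.

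The test of that difference passed for none of the 10 genes, and for 0.533% of all 16495 genes. The log2 value was below 0, meaning lower in HepG2 or higher in Caco-2 cells on co-culture, for 9 of the 10 and 58.3% of all genes. It was −1.17 for AMBP (SE 0.47, limma adjusted p = 0.248) and −1.22 for A2M (limma adjusted p = 0.534), the genes that moved with the marker share. With that share subtracted it turned to 1.57 for AMBP (limma adjusted p = 0.152) and 2.33 for A2M (limma adjusted p = 0.000754). The subtraction left no A2M in any co-cultured Caco-2 library, which fixed its direction. Without subtraction the log2 value was −0.51 for ALB (limma adjusted p = 0.424) and −0.38 for AHSG (limma adjusted p = 0.342). FETUB, among the 9 below 0, was kept by the filter only through mono-cultured HepG2 controls.

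SELENOP was the only gene of the 3 lists (other plasma proteins, receptors and regulators) that passed this test. In co-cultured Caco-2 cells it had 262 and 274 TPM without FFAs and 276, 297 and 251 TPM with them. Mono-cultured cells had 194, 178 and 177 TPM in controls and 134, 173 and 200.0 TPM with FFAs. All 5 co-cultured libraries were above all 6 mono-cultured ones, as was the case for 0.749% of all genes tested in Caco-2 cells. The log2 difference of SELENOP was 0.63 in Caco-2 cells (SE 0.10, limma adjusted p = 0.107) and −0.24 in HepG2 cells, where co-cultured libraries had 1744 to 2523 TPM and mono-cultured ones 2033 to 2850.1 TPM. The difference of the differences was −0.87 (SE 0.15, limma adjusted p = 0.0138).

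FFAs also gave no call among the 10 genes in Caco-2 cells. In mono-culture 0% of all genes passed at the adjusted and 2.61% at an unadjusted p under 0.05, and in co-culture 0.0199% and 2.83%. None of the 9 genes tested had an unadjusted p under 0.05 in either. ALB differed by −0.33 on the log2 scale in mono-culture (95% interval −1.01 to 0.34) and by 0.25 in co-culture (95% interval −0.51 to 1.01), with an average of −0.04 (95% interval −0.55 to 0.47, limma adjusted p = 0.998). The difference between these 2 effects was 0.59 (95% interval −0.43 to 1.60, limma adjusted p = 1). RBP4 differed by 0.16 (95% interval −0.07 to 0.39) and VTN by −0.14 (95% interval −0.47 to 0.19), averaged over cultures.

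**Figure D4:**
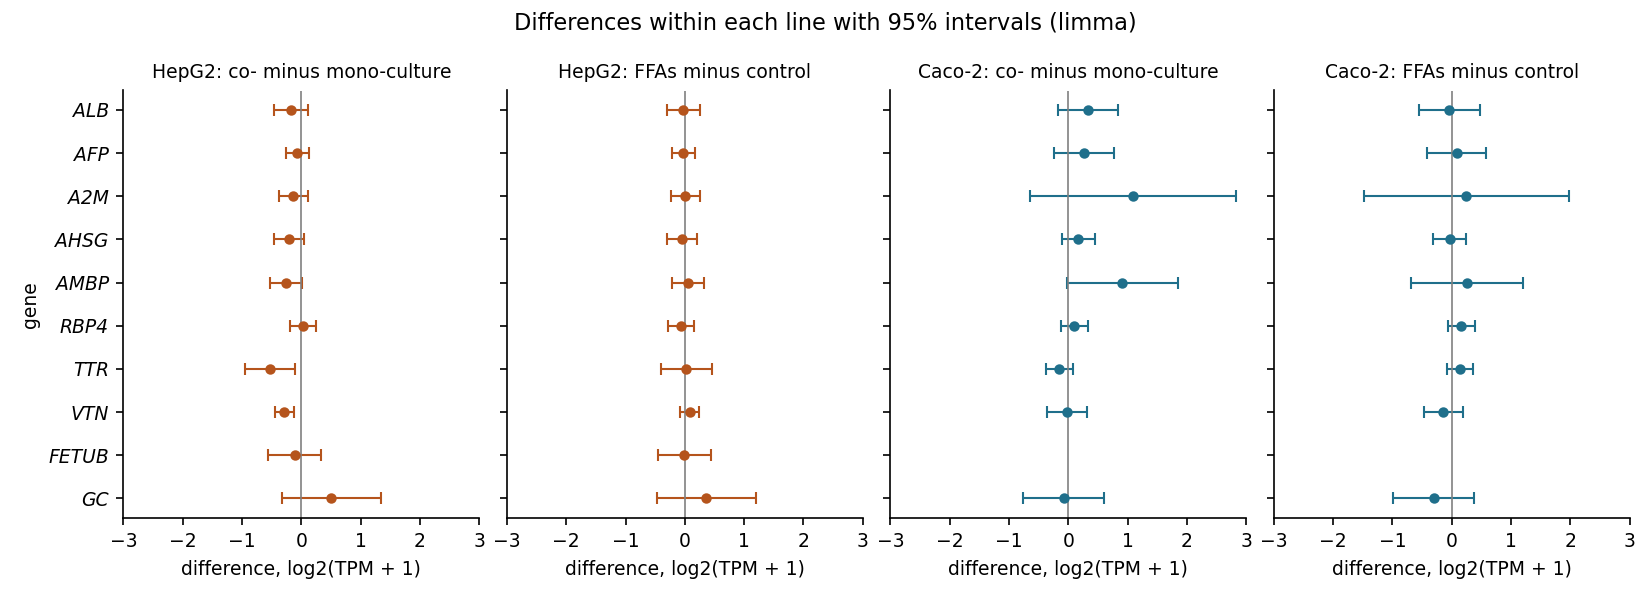
Log2 difference of each gene with its 95% interval for co-culture minus mono-culture and for FFAs minus control within HepG2 and Caco-2 cells, each averaged over the other factor, with a line at 0. FETUB was not tested in Caco-2 cells, the intervals of VTN and TTR for co-culture of HepG2 cells lie below 0, and those of A2M in Caco-2 cells are the widest.

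The study selected genes by a one-way analysis of variance over the 4 groups of a line, with an unadjusted p under 0.05 and a minimum difference between group means. These criteria took 0 of the 10 genes among the Caco-2 groups and 1 among the HepG2 groups. That gene was VTN (unadjusted p = 0.0144, largest difference 0.367), and limma's F test gave it an adjusted p of 0.644. The criteria selected 3.08% of 31100 genes in Caco-2 cells and 3.56% of 29942 genes in HepG2 cells.

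GC and FETUB were too low to compare (means under 10 TPM), and the other 8 were compared in how they varied over the 12 HepG2 libraries. A2M was the gene most like ALB among 8544 genes (Pearson r = 0.954 of log2(TPM + 1)), followed by VASN (0.938), COQ7 (0.924), POMT1 (0.915) and SLC38A3 (0.909). The genes most like AFP were AC243964.3 (0.872), SOX5 (0.831), WFS1 (0.829), RAB17 (0.822) and SMARCA1 (0.814). ALB correlated with TTR at 0.79, with AHSG at 0.64 and with its neighbour AFP at 0.41, AHSG with AMBP at 0.84, and TTR with VTN at 0.75. TTR and RBP4, whose proteins circulate together, had r = −0.41. These values describe 12 libraries that share groups, so no p is given.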

How the data were processed

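Gene expression was measured by mRNA-seq (SMART-Seq v4, polyadenylated RNA) in 23 libraries, which were grouped by line, culture and treatment as their labels state. The authors deposited 1 table of TPM per library. Per the labels and the methods, they removed rRNA, tRNA and mitochondrial reads with Bowtie2 2.1.0, mapped the rest to GRCh38 with STAR 2.7.1a and calculated TPM with RSEM 1.3.0. TPM hold no counts, so depth is unknown, no counting error is given and count tests were not used. The labels name serum in the treatment medium, whereas the methods describe serum-free medium with albumin.

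The 10 genes and all lists were chosen with earlier results of these data known. Values were analysed as log2(TPM + 1), and fold changes are on that scale, which understates those of low genes. Contrasts were tested with limma 3.58.1 in R 4.3.3 (eBayes with a trend, 4 groups of a line in one fit, or all 8 groups for contrasts between lines). Genes were kept where any group averaged 1 TPM or more, and Benjamini-Hochberg adjusted p were called at 0.05. Single genes were also tested by two-sided exact permutation within treatment or culture (scipy 1.17.1 with pandas 2.3.3 and numpy 2.4.6 in Python 3.11.15), and figures were drawn with matplotlib 3.10.9. The analysis of variance followed the criteria in the study's methods. All 10 genes were named. From the lists, genes past the threshold were to be named or, with none, the 3 highest in mean TPM, and of the other plasma proteins between lines only the 3 highest and the 3 lower ones are given. Values of some genes on the lists are not reported here. The fits were tested on simulated data. Alternatives were another pseudocount, other filters, quantile and median-of-ratios scaling, limma without the trend, only the groups compared, a replicate block, the HepG2 marker share subtracted, other marker limits and each library left out. Leaving out all libraries numbered 3 was added after the data had been seen.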

Additional observations from a re-analysis of the deposited data

Results flagged for a closer look

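The effect of co-culture on SELENOP, the selenium carrier of plasma, differed between the lines by the test of the difference itself. The log2 value (HepG2 minus Caco-2) was −0.87 with SE 0.15 (limma adjusted p = 0.0138). With 1 library left out it ran from −0.94 to −0.79, with adjusted p from 0.0063 to 0.0364, and under the other alternatives the adjusted p ran from 0.00774 to 0.0235. Within Caco-2 cells SELENOP had an adjusted p of 0.107 and within HepG2 cells one of 0.366 in limma.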

How the results depend on the processing

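No called difference between the lines among the 10 genes lost its call in any alternative. FETUB passed as higher in HepG2 cells under quantile normalization, median-of-ratios scaling and in 2 of the fits with 1 library left out, and GC as lower with a pseudocount of 0.1 and in 2 such fits. FETUB was kept by the filter only through mono-cultured HepG2 controls, the group called higher. GC was kept only through mono-cultured Caco-2 controls (mean 1.24 TPM), the group called higher, and co-cultured FFAs-treated HepG2 cells (1.52 TPM). In 1 of the 2 fits the HepG2 library at 4.46 TPM was left out, so there the filter kept GC through the Caco-2 controls alone. These calls of FETUB and GC carry no weight. For co-culture of HepG2 cells, 0 of the 10 genes were called and 2 with the replicate block (VTN, adjusted p = 0.0407, and TTR, adjusted p = 0.0307, in limma). Over all genes, 8 were called, 1 without a filter, 19 with a mean of at least 10 TPM, 4 under quantile normalization, 4 without the trend, 4 without the libraries numbered 3, 492 with the replicate block, and 0 to 15 with 1 library left out. The fit without mono-cultured control library 1 gave the 0. The analysis of variance selected VTN alone in HepG2 cells, 3 of the 10 genes with the replicate block and 0 by limma's F test, and over all genes 1661 with the block and 0 by the F test. In Caco-2 cells the F test called 2 genes, and co-culture gave 0 genes, 7 without a filter, 8 without the trend, 5 with the HepG2 share subtracted and 60 with the replicate block. For the difference between lines in the effect of co-culture, 88 genes were called, 344 with the replicate block and 328 without the libraries numbered 3. The other contrasts within a line had 0 to 3 calls and at most 11 under any alternative other than leaving out 1 library.

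The labels and methods give same-numbered libraries nothing in common but the number. Their deviations from the group means correlated at over 0.1 in 7 of 15 same-numbered pairs of Caco-2 and 15 of 18 of HepG2 cells (medians 0.088 and 0.30, against −0.12 and −0.23 for other pairs), so not every pair did. The library most like each carried its own number in 5 of 11 and 10 of 12. This is a hint from the data and not part of the design.

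With the HepG2 share subtracted, the culture difference in Caco-2 cells turned to −2.46 for A2M (called, 1 of the 10 genes), −1.83 for AMBP, −0.23 for ALB and −0.0188 for AFP, and the difference between lines to 1.57 for AMBP and 2.33 for A2M, again the 1 gene called. The subtraction touched only co-cultured libraries, although mono-cultured ones carried 0.1 to 0.183% too. It left no A2M in any co-cultured Caco-2 library, so the direction of A2M was fixed by it and both calls rest on that. Under quantile normalization co-culture of HepG2 cells gave 0.0912 for AFP, 0.0386 for AHSG and −0.0048 for RBP4, and without the libraries numbered 3 it gave 0.000675 for AFP. AFP ranked 4 to 7 and AHSG 9 to 15 among all genes there, and quantile normalization leaves top ranks little room to vary. ALB of Caco-2 cells with FFAs turned to 0.0836 with the replicate block and 0.0714 without the libraries numbered 3. With 1 library left out, ALB ran from −0.17 to 0.15 for FFAs in Caco-2 cells and from −0.12 to 0.0306 in HepG2 cells, and RBP4 from −0.0353 to 0.10 for co-culture of HepG2 cells. Except where named, the cause was not tested. A marker limit of 0.1 TPM left no HepG2 marker, so no share was computed under it, and unknown depth limits all values near 1 TPM.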
